A study of Mus musculus with 46 samples.

Results

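Kidneys of castrated and sham-operated male mice were compared at 12 weeks of age, 4 weeks after surgery at 8 weeks. The animals were wild-type mice of the C57BL/6 strain. The castrated group had 6 libraries and the sham male group had 3, which makes 9 of the 46 libraries of the series. A sham-operated female group of 3 libraries, and kidneys of castrated and sham males at 18 months (5 and 3 libraries), are set beside them where they bear on a gene. The labels do not say whether libraries of 1 group came from separate animals. Of 17242 genes in the 12-week table, 11695 had a mean of at least 1 FPKM (fragments scaled to transcript length and library size) in either male group. Of these, 11693 were given a difference of log2(mean + 1), castrated minus sham males, and 2 were listed at 0 in 1 male group and given none. Values are 1 mean per group as deposited, so no spread between replicates can be printed beside them, and the depth of the libraries is unknown. Under the protocols, RNA was poly(A)-enriched and sequenced as paired reads of 150 bp. In a bulk tissue, fewer cells of a type and less RNA per cell cannot be told apart.

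Castration removes the testes, the main source of testosterone. The proximal tubule, the nephron segment that reclaims most filtered solutes, responds to testosterone and dihydrotestosterone, steroids that change the transcription of their target genes. In mice this segment is known for large differences between the sexes in transporters, cytochromes P450 and other enzymes that modify steroids, fatty acids and drugs. The label of the tissue was met by the markers of the nephron: Slc34a1, the main phosphate transporter of the proximal tubule, had 1533 FPKM in sham males, and Umod, the uromodulin gene of the thick ascending limb, had 689.

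The comparison was broad but mostly small. At the 2-fold limit on mean + 1, 310 of the 11693 genes were higher in castrated males (2.65%) and 448 were lower (3.83%). Scaling both columns to their upper quartile moved the median of all genes from 0.01 to 0.14 and changed these counts to 538 higher and 327 lower. At 4-fold, 21 genes were higher and 62 lower, and at 8-fold 8 were higher and 18 lower. The median difference over all compared genes was 0.01 on the log2 scale, with quartiles at -0.33 and 0.35. The authors' deposited table gives each gene a test for only 1 of 3 comparisons, and castration is the listed comparison for 5598 genes. Of those, 1264 rose (22.6%) and 1458 fell (26%) at the authors' adjusted p under 0.05 in the authors' deposited table. Among the 3658 listed genes that also reached the mean limit, 1203 rose (32.9%) and 1435 fell (39.2%). "Rose" and "fell" refer below to these calls at 12 weeks. Counts within the gene lists below are to be read beside these shares over all compared genes. A gene whose deposited test is for another comparison has no test of castration here, and only its means are given.

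**Figure D1:**
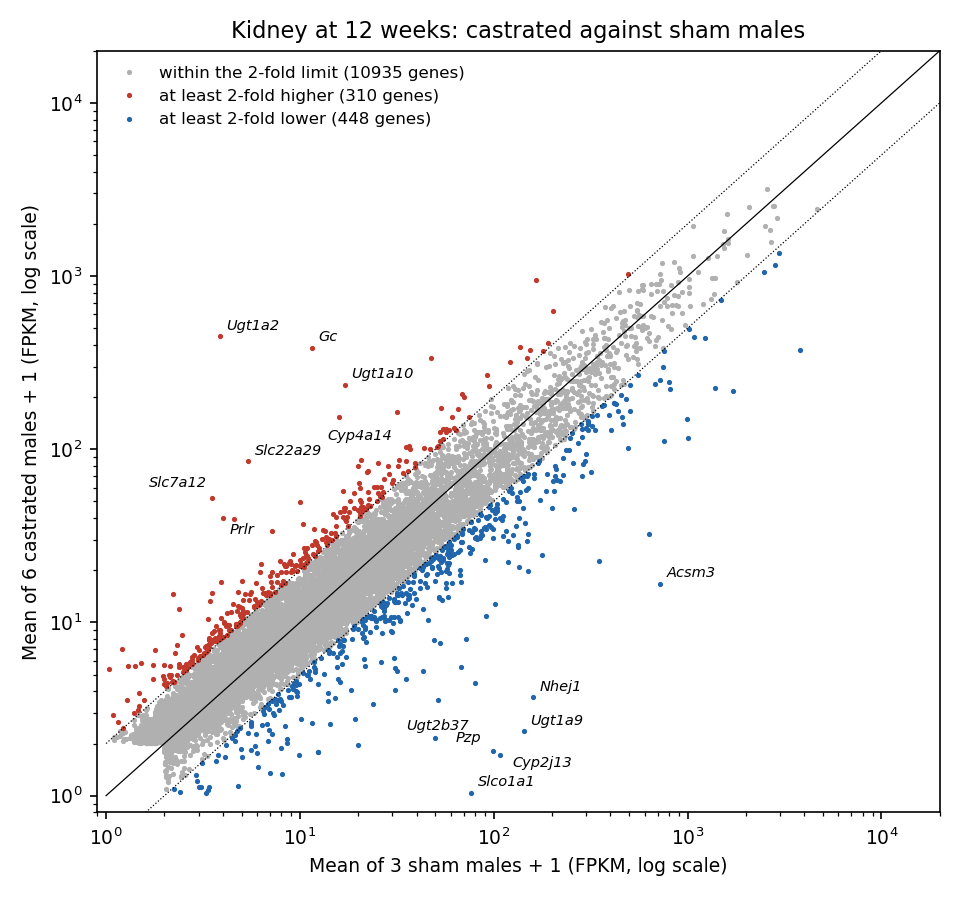
Each point is 1 of 11693 genes, with the mean of 3 sham males on the horizontal axis and of 6 castrated males on the vertical axis, both as mean + 1 in FPKM on log scales. The dotted lines mark the 2-fold limit, past which 310 genes lie above and 448 below, and the labelled genes are those with the 7 largest rises and 7 largest falls among genes with a mean of at least 5.

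The 20 largest falls, chosen by size alone, were led by Slco1a1. Slco1a1, an organic anion transporter, had a sham male mean of 75.6 FPKM and a castrated male mean of 0.0396, with 0.025 in females. Listed means include the 0.01 that was added to every value. Cyp2j13, a cytochrome P450, had 106 and 0.724 FPKM, with 0.16 in females. Pzp, the pregnancy zone protein gene of a broad protease inhibitor, fell from 97.8 to 0.819 FPKM. Acsm3 and Acsm2 encode mitochondrial enzymes that activate medium-chain fatty acids. Acsm3 fell from 722 to 15.7 FPKM, a difference of -5.43, and Acsm2 from 3800 to 372, a difference of -3.35. Both had the smallest adjusted p that occurs for castration in the authors' deposited table, 0.000476. That value is shared by 1076 called genes, so it does not rank them. Cyp2e1, which oxidises ethanol and other small molecules, fell from 1003 to 114 FPKM with the same adjusted p in the authors' deposited table. Slc7a13, an aspartate and glutamate transporter of the S3 segment, the last part of the proximal tubule, had 347 FPKM in the sham group, 21.6 after castration and 0.242 in females. Cyp4b1, a fatty acid hydroxylase, had 1723 and 217 FPKM, and the glucuronosyltransferase gene Ugt2b38 had 634 and 31.2.

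Of the 20 largest falls, 6 were listed for castration in the authors' deposited table and all 6 fell, beside 39.2% of all compared listed genes. They were picked by the difference of the same libraries, so these calls are not separate evidence. The other 14 have no deposited test of castration. The smallest of the 20 differences was that of Akr1c14, a 3-alpha-hydroxysteroid dehydrogenase, at -2.98 (100.3 to 11.8 FPKM). Slc22a7, which carries organic anions such as urate and prostaglandins, fell to 3.45 FPKM from 78.9, whereas females had 96.0. Nhej1, a factor of DNA end joining, had 158 and 2.71 FPKM at 12 weeks. At 18 months it had 4.72 and 4.39 in sham and castrated males in the authors' unnamed unit. In 12-week liver it differed the other way, with 6.46 FPKM in sham and 42.1 in castrated males.

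The 20 largest rises were chosen in the same way. Gc, which encodes the vitamin D binding protein, had a mean of 10.6 FPKM in the sham group, 385 after castration and 61.4 in females. Slc7a12, an amino acid transporter gene, had 2.51 and 51.6 FPKM, with 89.5 in females. Prlr, the prolactin receptor, rose from 3.02 to 39.3 FPKM, a difference of 3.32, and Hpd, which acts early in the breakdown of tyrosine, rose to 336 from 46.4. Apoe, a lipoprotein component, rose from 164 to 942 FPKM, above its female mean of 492. Acot3, a peroxisomal acyl-CoA thioesterase, rose from 6.17 to 32.6 FPKM. These 4 genes were also at the smallest adjusted p in the authors' deposited table, 0.000476, which many called genes share. The glutathione transferase genes Gsta1 and Gsta4 had 0.209 and 30.7 FPKM in sham males and 6.07 and 164 in castrated males. Abcb1b, a drug efflux pump, had 2.53 and 13.8 FPKM. The largest difference of all, 6.87, was that of the glucuronosyltransferase gene Ugt1a2, from 2.85 to 449 FPKM, which did not pass the test (adjusted p = 0.492 in the authors' deposited table). Of the 20 largest rises, 7 were listed for castration and 6 of them rose, beside 32.9% of all compared listed genes. The rises too were picked by the difference of the same libraries, so these calls are not separate evidence.

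**Figure D2:**
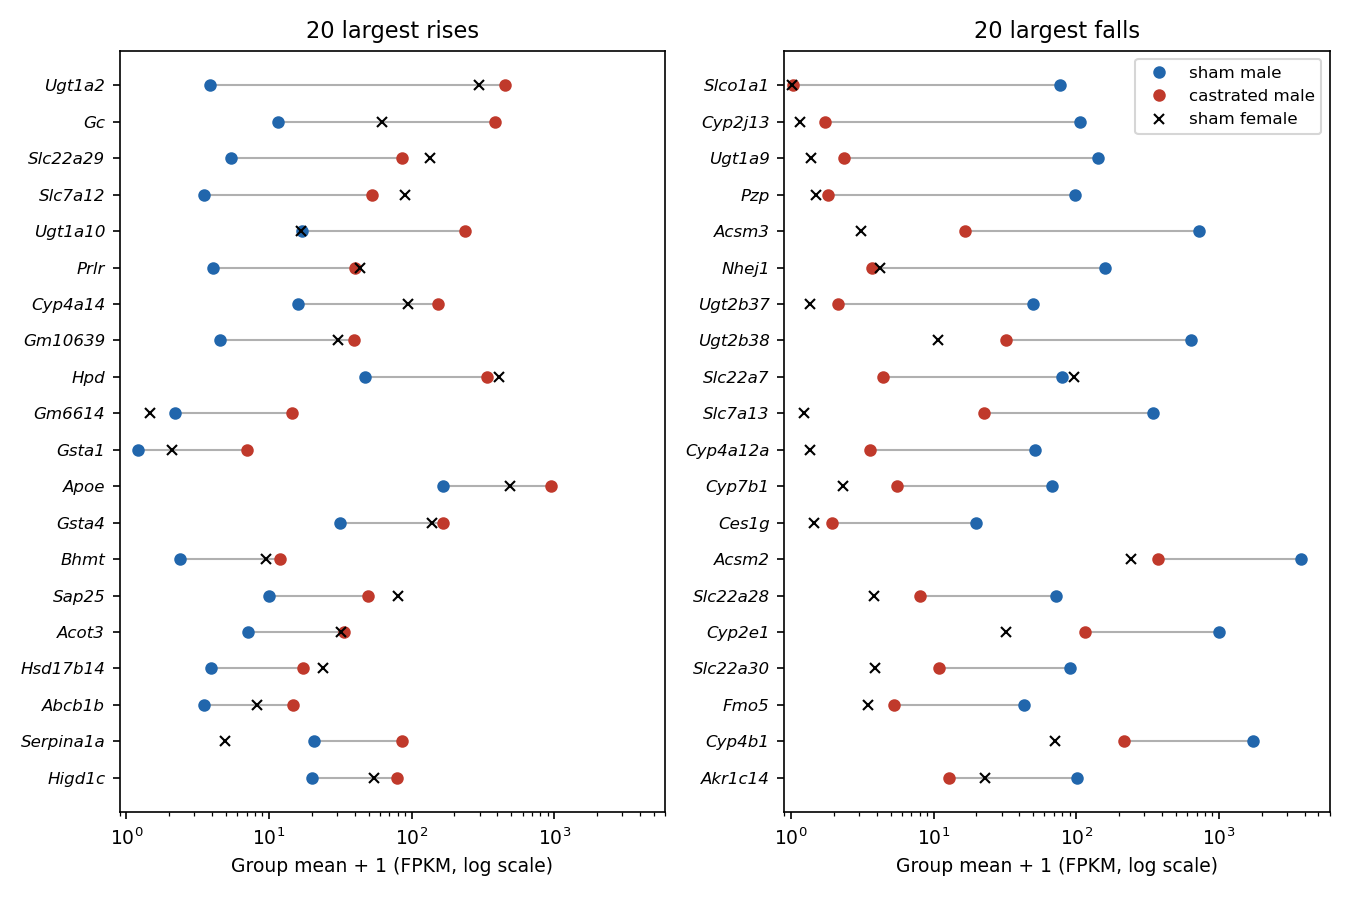
Group means + 1 in FPKM on a log axis for the 20 largest rises (left) and the 20 largest falls (right), with 1 point per group of sham males, castrated males and sham females and no error bars, since values are group means. Most crosses (females) lie on the castrated side, and Slc22a7 (female mean 96.0), Ugt1a10 (15.8) and Serpina1a (3.9) are among those that do not.

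A pair of gene clusters held members with opposite differences. Slc22a28, Slc22a29 and Slc22a30 are organic anion transporter genes that lie in this order on the minus strand of chromosome 19, at 8062209 to 8131982, 8160165 to 8218900 and 8335371 to 8405111 (mm10, GENCODE vM21). The outer members were lower in castrated males: Slc22a28 had 71.0 and 7.07 FPKM, and Slc22a30 had 89.9 and 9.94. The middle member was higher: Slc22a29 had 4.41 FPKM in the sham group, 84.3 after castration and 133 in females. All 3 genes had the same directions at 18 months, with log2 fold changes of -3.06, 3.60 and -4.03 in the authors' deposited table from DESeq2. At the Ugt1a locus on the plus strand of chromosome 1, alternative first exons are joined to shared later exons, so the split of reads among its genes is uncertain. Ugt1a9 (88070800 to 88218997) fell from 142 to 1.35 FPKM, and Ugt1a10 (88055388 to 88219004) rose from 16.1 to 235 with an adjusted p of 0.0487 in the authors' deposited table. Ugt1a2 starts further along, at 88200601. At 18 months Ugt1a9 and Ugt1a10 both rose in the authors' deposited table. Ugt1a9 had means of 0.0667 in sham males and 0.974 in castrated males, and Ugt1a10 had 9.04 and 106.9. The opposite directions of Ugt1a9 and Ugt1a10 were thus not seen again at that age.

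The promoters of these 6 genes are shown because neighbouring starts differed in direction at the earlier age, to which the labels lower and higher refer. Each is the 250 bases before the RefSeq start on GRCm38.p6, on the gene's own strand, and capitals mark the steroid response core site TGTTCT or its reverse complement AGAACA. The match of Ugt1a2 lies at position 261 of its 300-base entry, after the stretch shown.
Slc22a28 (chr19:8131983-8132232, minus strand, lower): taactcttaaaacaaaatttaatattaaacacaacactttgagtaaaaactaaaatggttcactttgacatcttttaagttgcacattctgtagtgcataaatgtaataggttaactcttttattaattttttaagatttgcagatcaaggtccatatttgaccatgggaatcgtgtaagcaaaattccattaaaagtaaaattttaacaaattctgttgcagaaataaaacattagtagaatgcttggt
Slc22a30 (chr19:8405106-8405355, minus strand, lower): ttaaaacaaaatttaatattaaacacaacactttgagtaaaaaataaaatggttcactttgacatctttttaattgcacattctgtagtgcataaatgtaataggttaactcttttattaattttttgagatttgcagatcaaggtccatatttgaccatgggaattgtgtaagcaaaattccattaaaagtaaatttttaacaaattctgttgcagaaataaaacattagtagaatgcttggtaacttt
Slc22a29 (chr19:8218901-8219150, minus strand, higher): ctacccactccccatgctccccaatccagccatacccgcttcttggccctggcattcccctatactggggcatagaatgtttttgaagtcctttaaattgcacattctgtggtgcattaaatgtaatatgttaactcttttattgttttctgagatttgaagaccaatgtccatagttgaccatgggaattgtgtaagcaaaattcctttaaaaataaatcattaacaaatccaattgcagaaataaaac
Ugt1a9 (chr1:88070529-88070778, plus strand, lower): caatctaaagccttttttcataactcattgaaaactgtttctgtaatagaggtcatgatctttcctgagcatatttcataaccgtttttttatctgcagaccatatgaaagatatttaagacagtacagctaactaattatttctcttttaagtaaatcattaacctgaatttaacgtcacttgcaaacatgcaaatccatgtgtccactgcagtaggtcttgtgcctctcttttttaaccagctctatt
Ugt1a10 (chr1:88055161-88055410, plus strand, higher): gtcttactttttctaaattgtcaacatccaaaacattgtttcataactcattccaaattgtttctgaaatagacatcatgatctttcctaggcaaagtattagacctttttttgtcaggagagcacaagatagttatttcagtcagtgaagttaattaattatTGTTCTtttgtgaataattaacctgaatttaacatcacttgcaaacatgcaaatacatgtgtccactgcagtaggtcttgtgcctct
Ugt1a2 (chr1:88200361-88200610, plus strand, higher): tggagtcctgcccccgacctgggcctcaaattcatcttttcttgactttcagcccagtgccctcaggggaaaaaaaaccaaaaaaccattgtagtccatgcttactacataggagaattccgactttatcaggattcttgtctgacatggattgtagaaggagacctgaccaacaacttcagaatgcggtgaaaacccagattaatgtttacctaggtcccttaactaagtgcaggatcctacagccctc
Aligned over the 300 bases of each RefSeq promoter entry, Slc22a28 and Slc22a30, which shared a direction, were 94.1% identical, while Slc22a29 was 68.0% and 66.2% identical to them. Ugt1a9 and Ugt1a10 were 70.9% identical, and Ugt1a2 was 43.7% and 44.2% identical to them. Ugt1a9 and Ugt1a10 differed in direction at the earlier age only, since both rose at 18 months. The uncertain split of reads at this locus applies to these directions. Any link between promoter identity and direction was not tested. Of the 40 named genes, 31 had a promoter entry. The core site, on either strand, occurred in 5 of 20 promoters of the rises (25%), in 3 of 18 promoters of the falls (16.7%) and in 19.0% of all 32851 promoters of the table. The full steroid response site, in which AGAACA and TGTTCT face each other, occurred in 0 promoters of the named genes and 3 of all promoters. The STAT site TTCNNNGAA occurred in 3 of 20 promoters of the rises, 1 of 18 of the falls and 8.30% of all. The HNF1 site, bound by a factor of proximal tubule identity, occurred in 0 of the named genes' promoters and in 3 of all. All motifs were searched on both strands in the 300 bases. The core site lies within the full site, and a match describes letters in this window only.

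Transporters moved both ways. Of 33 compared transporters of organic ions and drugs, 16 were listed for castration, of which 6 rose and 8 fell, beside 32.9% and 39.2% over all compared listed genes, and 5 were at least 2-fold higher and 12 at least 2-fold lower. Slc22a6, the basolateral organic anion transporter OAT1, fell from 207 to 69.0 FPKM, while its close relative Slc22a8 (OAT3) rose from 231 to 387. Slc22a12, the urate transporter, had 801 and 245 FPKM. Abcc3 rose from 0.745 to 4.71 FPKM, and Abcc4 had 3.81 and 14.1. Amino acid transporters, with 23 compared, had 4 that rose and 2 that fell among 6 listed. Slc7a9 and Slc6a18, which carry cystine and neutral amino acids at the brush border, rose from 73.8 to 116 and from 141 to 225 FPKM. The glutamine transporter gene Slc38a3 rose from 13.7 to 41.1. Slc13a2, the citrate transporter of the brush border, rose from 16.2 to 38.6 FPKM, and Slc5a8, a lactate transporter, fell from 29.8 to 12.1. Slc5a2, the glucose transporter SGLT2, had 307 and 363 FPKM.

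Sex-biased genes known from mouse kidney were examined as lists that were drawn up with earlier results of these data known, so their direction is not independent evidence. Of 21 male-biased genes, 20 were at least 2-fold lower and none was at least 2-fold higher, and their median difference was -3.12. Of the 7 listed for castration, 7 fell, among them Odc1, the first enzyme of polyamine synthesis, from 177 to 23.5 FPKM. Cndp2, a dipeptidase, fell from 755 to 110.4. The list's smallest difference was that of Gusb, the lysosomal beta-glucuronidase, which fell from 13.7 to 7.61 FPKM. Of 15 female-biased genes, 11 were at least 2-fold higher and 1 was at least 2-fold lower, with a median of 2.38. That exception was Akr1c18, a 20-alpha-hydroxysteroid dehydrogenase that inactivates progesterone, which fell to 1.61 FPKM from 13.4 while females had 84.3. Igf2, the growth factor gene, had 0.853 FPKM in the sham group, 1.23 after castration and 71.3 in females. Kap, the androgen-regulated kidney protein, is listed at 0 in sham males, at 689 FPKM in castrated males and at 27835 in females, and Gpx3, the plasma glutathione peroxidase, named after its values were seen, is listed at 0 in both male groups. Both have very high sham male means at 18 months (74818 for Kap and 19486 for Gpx3, in the unnamed unit), and a listed 0 can be a failed estimate, so neither has a difference here.

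Steroid-converting enzymes were mostly lower. Of 18 compared, 8 were listed for castration, of which 7 fell (39.2% over all compared listed genes) and 0 rose. Of the 18, 9 were at least 2-fold lower (3.83% over all compared genes), and the median difference was -0.99. Srd5a1, a 5-alpha-reductase that makes dihydrotestosterone, fell from 11.3 to 3.40 FPKM, and its relative Srd5a2 had 3.42 and 1.28. Akr1c21, a 17-alpha-hydroxysteroid dehydrogenase, fell from 1480 to 728 FPKM. Hsd17b2, which oxidises testosterone and oestradiol, had 14.1 and 2.66, and Cyp7b1, an oxysterol hydroxylase, had 66.8 and 4.56. Hsd11b2, which protects the mineralocorticoid receptor from cortisol-like steroids, had 80.9 and 92.8 FPKM. Among receptor-linked genes, Fkbp5, a cochaperone whose gene responds to several steroids, fell from 28.7 to 7.87 FPKM.

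Phase I and II enzymes differed in direction within families as well as between them. Of 15 glucuronosyltransferases, 3 were at least 2-fold higher and 8 at least 2-fold lower. Of 20 sulfotransferases and aldehyde and alcohol dehydrogenases, 10 were listed for castration, 9 fell and 1 rose. Over all compared listed genes, 32.9% rose and 39.2% fell. Of 30 cytochromes P450, 15 had a higher and 15 a lower mean in castrated males. In this family 10 were at least 2-fold lower and 4 at least 2-fold higher, beside 3.83% and 2.65% over all compared genes. Among the 9 listed for castration 6 rose and 2 fell. Cyp27b1, which makes active vitamin D, rose from 0.961 to 3.89 FPKM, and Cyp2d26 from 55.6 to 131. Cyp4a14, a fatty acid omega-hydroxylase, had 15.0 and 153 FPKM, whereas Cyp4a12a, of the same subfamily, had 50.3 and 2.57. Glutathione transferases were mostly higher, with 5 that rose and 2 that fell among 8 listed, a median of 0.47 over 21 members and 3 members at least 2-fold higher. Mgst3, a microsomal member, rose from 83.1 to 157 FPKM, and Gsta2 had 201 and 630. Genes of glutathione synthesis and targets of NRF2, the oxidative stress factor, lay the other way. Of 25 compared, 12 were listed for castration, 11 fell and 0 rose, with a median of -0.46. Prdx1, a peroxiredoxin, fell from 812 to 221 FPKM. The heme oxygenase gene Hmox1 fell from 20.4 to 5.15. Gclm and Gss, which act in glutathione synthesis, fell from 283 to 130 and from 305 to 140 FPKM.

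Protein quality control genes were lower as groups. All 25 compared proteasome subunit genes had a lower mean in castrated males. Of the 19 listed for castration 18 fell (39.2% over all compared listed genes) and 0 rose, and the median difference was -0.76. Psmd14, the deubiquitinase of the regulatory particle, fell from 57.8 to 23.0 FPKM, and Psmb5, a catalytic subunit, from 177 to 88.6. Summed over the list, the level was 2672 FPKM in the sham group, 1764 after castration and 1762 in females. Of 28 cytosolic heat shock proteins and cochaperones, 19 were listed for castration, of which 17 fell and 2 rose, and the median was -0.62. Dnaja1, a cochaperone of HSP70, fell from 111 to 30.7 FPKM, and Hspa8, the constitutive HSP70, from 971 to 523. The 2 that rose were Hsf1, the heat shock transcription factor, from 14.8 to 21.2, and the small heat shock protein gene Hspb1, from 7.11 to 10.9. Of 23 chaperones and response genes of the endoplasmic reticulum, 15 were listed for castration and 15 fell, with a median of -0.78. Calr, the calreticulin gene, fell from 435 to 165 FPKM, and Hspa5, the HSP70 of this compartment, from 188 to 95.9. Of the transcription factors of the same list, Xbp1 fell from 66.5 to 47.9 FPKM and Atf6 from 5.11 to 3.92, while Ddit3 had 16.1 and 26.8 and Atf4 67.3 in both groups. Cytosolic ribosomal proteins showed no common shift, with 5 that rose and 2 that fell among 13 listed, none of 30 past the 2-fold limit and a median of 0.05.

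**Figure D3:**
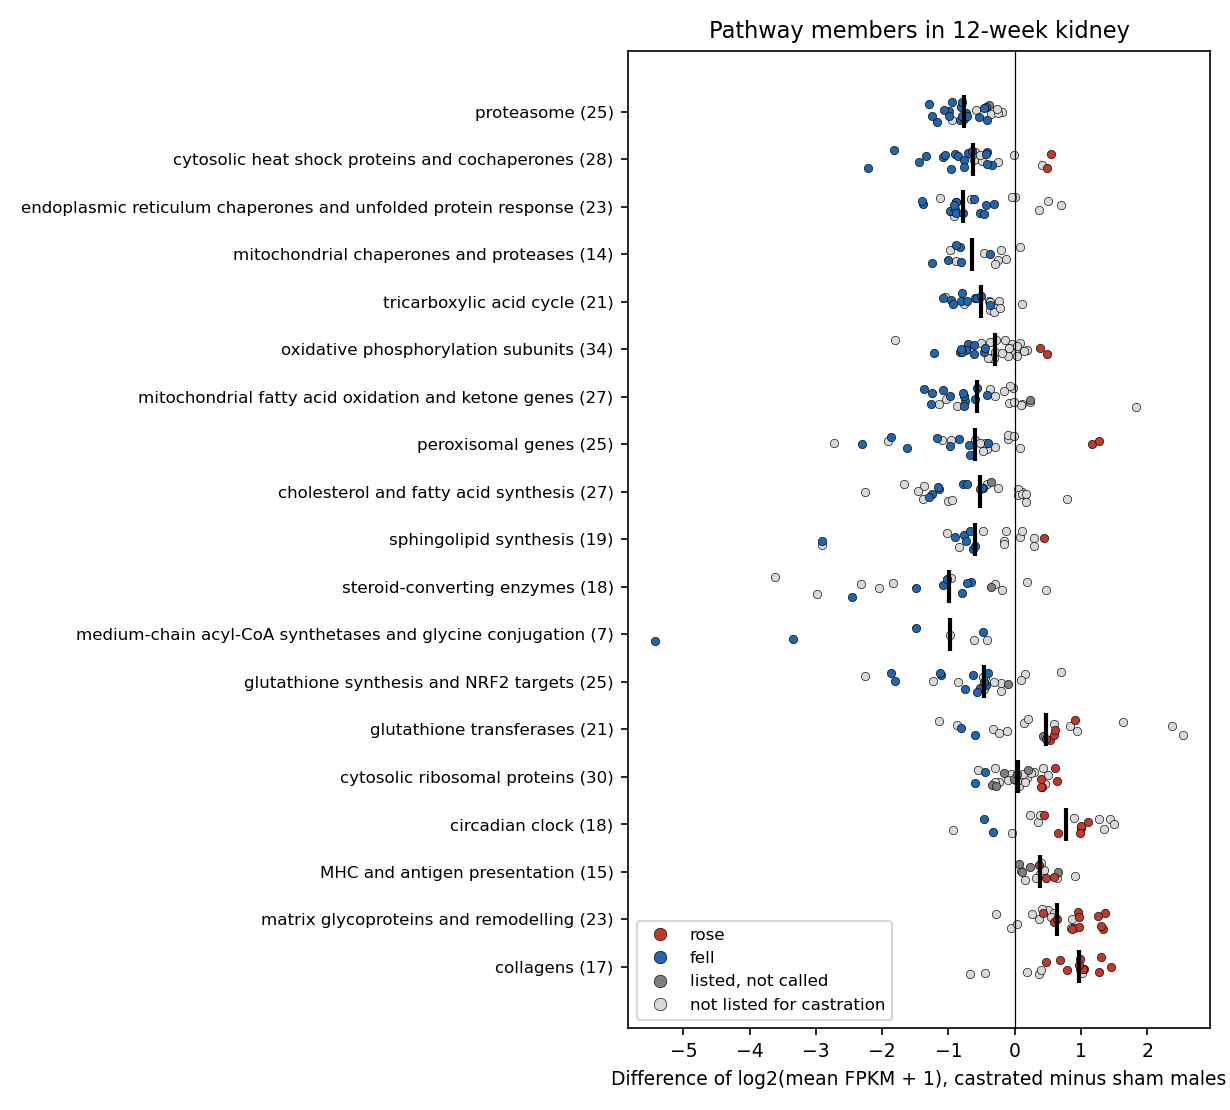
Each point is a compared member of a gene list (number in brackets), placed by its difference of log2(mean FPKM + 1), castrated minus sham males, and coloured by the authors' call. The thick vertical bar is the list's median: -0.76 for the proteasome and 0.98 for collagens, with 0.01 for all genes.

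Mitochondrial and peroxisomal genes were lower too. Of 21 genes of the tricarboxylic acid cycle, 10 were listed for castration and 10 fell, with a median of -0.50. Over all compared listed genes, 39.2% fell. Mdh2, the mitochondrial malate dehydrogenase, fell from 345 to 199 FPKM, and Sdha, a subunit of succinate dehydrogenase, from 271 to 165. Of 34 subunits of oxidative phosphorylation, 12 were listed, 10 fell and 2 rose, with a smaller median of -0.30. Cox5a, a subunit of cytochrome c oxidase, fell from 426 to 182 FPKM, while Cox5b, of the same complex, rose from 724 to 1021. Of 27 genes of mitochondrial fatty acid oxidation and ketone use, 13 were listed, 12 fell and 0 rose, with a median of -0.56. Acadm and Acads, the medium- and short-chain acyl-CoA dehydrogenases, fell from 322 to 135 and from 85.4 to 32.6 FPKM. Of 25 peroxisomal genes, 11 were listed, 9 fell and 2 rose, with a median of -0.59. Amacr, a racemase of branched-chain and bile acid intermediates, fell from 133 to 26.2 FPKM, and Crot, which attaches carnitine to medium-chain acyl groups, from 130 to 34.9. Hao2, a hydroxyacid oxidase, rose from 152 to 372, and Acaa1b, a thiolase, from 148 to 334.

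Genes of lipid synthesis were mostly lower. Of 27 genes of cholesterol and fatty acid synthesis, 10 were listed for castration, 8 fell (39.2% over all compared listed genes) and 0 rose. Of the 27, 10 were at least 2-fold lower (3.83% over all compared genes), with a median of -0.52. Sqle, the squalene epoxidase of cholesterol synthesis, fell from 20.7 to 8.17 FPKM, and Fasn, the fatty acid synthase, from 31.0 to 12.1. Of 19 genes of sphingolipid synthesis, 8 were listed, 7 fell and 1 rose, with a median of -0.60. Degs2, a desaturase that makes phytoceramide, fell from 29.8 to 3.10 FPKM, and Ugt8a, the galactosyltransferase that begins sulfatide synthesis, had 34.4 and 3.75. Cers4, a ceramide synthase, was the member that rose, from 2.93 to 4.36. Of 21 genes of fatty acid uptake, lipid droplets and lipoproteins, 8 were listed, 5 fell and 2 rose, with a median of -0.16. The shares over all compared listed genes were 39.2% and 32.9%. Cd36, a fatty acid uptake receptor, fell from 118 to 21.4 FPKM, and Lpl, the lipoprotein lipase, from 283 to 69.5.

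Markers of nephron segments did not move as blocks. Of 12 S3 markers, 6 were at least 2-fold lower (3.83% over all compared genes) and 4 of 6 listed fell. Over all compared listed genes, 32.9% rose and 39.2% fell. The summed level of the S3 markers was 1099 FPKM in the sham group, 588 after castration and 803 in females. The members with the largest differences, Slco1a1, Slc22a7, Slc7a13 and Cyp7b1, are also among the 20 largest falls. Slco1a1, Slc7a13 and Cyp7b1 are on the male-biased list as well. Slc7a13 alone had 347 FPKM in the sham group and 21.6 after castration, so the summed level does not describe the segment as a whole. Of the 12, 3 had a higher mean in castrated males, among them Agt, the angiotensinogen gene, with 26.0 and 46.5 FPKM. Slc3a1, the heavy chain of the cystine transporter, had 163 and 162 FPKM, and Slc6a18 rose. The 12 markers of the convoluted part had a summed level of 2945 FPKM in sham males and 2882 in castrated males. Of 10 thick ascending limb markers, 5 rose and 2 fell among 7 listed. Slc12a1, the sodium-potassium-chloride transporter, rose from 162 to 261 FPKM, and Ppp1r1a, a phosphatase inhibitor, from 125 to 232, while Umod fell from 689 to 425. Podocyte markers gave 1 that rose, Cdkn1c, and 3 that fell, among them Ptpro and Clic5, of 5 listed. Of 9 principal cell markers of the collecting duct, 6 had higher and 3 lower means, with a median of 0.13. Among the 3 listed, 2 rose and 1, Aqp3, fell. Fxyd4, a sodium pump regulator on that list, rose from 46.0 to 99.3 FPKM. The 8 intercalated cell markers had a median of 0.09, with 6 higher and 2 lower means. Their largest difference was that of Slc4a9, a bicarbonate exchanger, which rose from 40.5 to 81.8 FPKM. Of 10 distal convoluted and connecting tubule markers, 5 had higher and 5 lower means, with a median of -0.15. Among the 2 listed, Trpm6 rose and Pvalb fell. Differences ranged from -0.96 to 1.29. Wnk4, a kinase that governs salt transport, had 93.6 and 230 FPKM and no deposited test of castration.

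**Figure D4:**
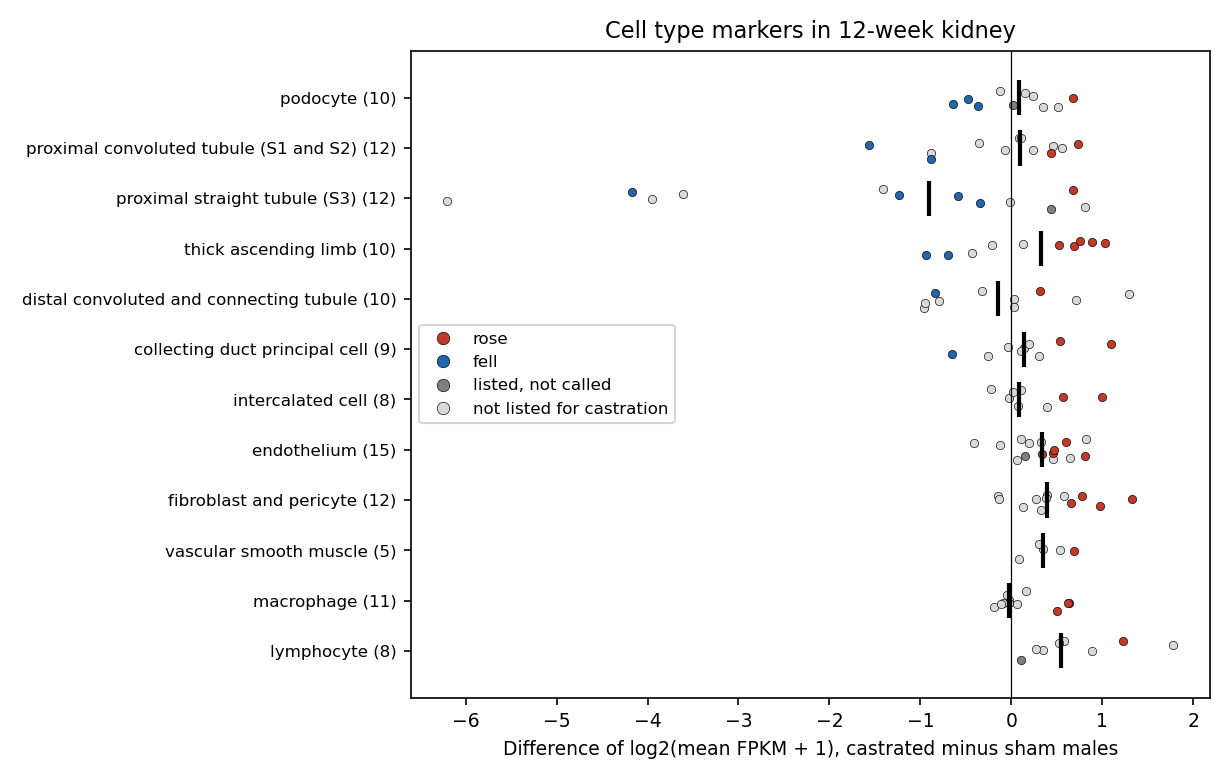
Differences of log2(mean FPKM + 1), castrated minus sham males, for compared markers of 12 kidney cell types, coloured by the authors' call, with the median as a thick bar. The S3 list spreads furthest to the left, with a median of -0.91, and the stromal lists lie mainly to the right of 0.

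Genes of the matrix and of stromal cells were higher. Of 17 collagen genes, 10 were listed for castration and 10 rose (32.9% over all compared listed genes). Of the 17, 6 were at least 2-fold higher (2.65% over all compared genes), with a median of 0.98. Col14a1, a fibril-associated collagen, rose from 15.8 to 45.1 FPKM, and Col3a1 from 12.7 to 27.1. Col4a3 and Col4a4, chains of the glomerular basement membrane, were the 2 members with lower means, and Col4a4 had 24.4 and 17.7 FPKM. Of 23 genes of matrix glycoproteins and remodelling, 11 were listed and 11 rose, with a median of 0.64, among them Lama2, from 2.69 to 8.55, and Dcn, the decorin gene, from 18.1 to 44.6. All 18 collagens of the list summed to 230 FPKM in the sham group, 343 after castration and 434 in females. Markers of fibroblasts and pericytes were higher beside them, with 4 of 4 listed that rose and 10 of 12 compared markers above the sham male mean. Summed levels of all 14 were 46.5, 81.2 and 94.3 FPKM in the same order. Of 15 endothelial markers, 5 rose and 0 fell among 6 listed, with summed levels of 275, 342 and 371. The part of these cells in the matrix differences was not tested. At 18 months the collagens did not repeat: 0 of 17 rose and 1 fell in the authors' deposited table.

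Immune gene lists differed in size, with medians from -0.02 for macrophage markers to 0.55 for lymphocyte markers. All 15 compared genes of MHC and antigen presentation had higher means, 3 of 7 listed rose (32.9% over all compared listed genes), none passed the 2-fold limit, and the median was 0.38. B2m, the invariant light chain of class I molecules, rose from 355 to 539 FPKM. Of 18 interferon response genes, 2 of 2 listed rose, and the median was 0.48. Of 11 macrophage markers, 3 of 3 listed rose (Csf1r, Mrc1 and Cd68). The median of the 11 was -0.02, or 0.12 under upper quartile scaling. Summed over all 16 macrophage markers, also those under the mean limit, the levels were 88.3 and 93.7 FPKM. Of 18 lymphocyte markers, 15 were in the 1-mean-per-group values and 8 were compared, the rest lying under the mean limit. All 8 compared lymphocyte markers had higher means, and 2 were at least 2-fold higher (2.65% over all compared genes). Of the 2 listed for castration, 1 rose. The other, Cd8a, did not pass the test (adjusted p = 0.679 in the authors' deposited table). Lymphocyte markers were at low levels, with summed levels over the 15 of 15.7 FPKM in sham and 39.2 in castrated males. The highest of them, Jchain of antibody-secreting cells, had 4.01 and 16.2 FPKM. Mzb1, of the same cells, rose from 2.87 to 8.05. Jchain and Mzb1 together made up most of the difference in the summed level. Of 10 hepatocyte markers 5 were compared, with differences from -2.70 to 2.07. Summed levels of all 10 were 185 FPKM in sham and 129 in castrated males, and Alb, the albumin gene, had 8.78 and 8.97. Of 9 adipocyte markers 2 were compared: Car3, which muscle also expresses, had 42.1 and 10.9 FPKM and Fabp4 55.4 and 65.7, and Adipoq did not reach the mean limit of 1. Of the adrenal markers 1 was compared, and the enzyme gene Cyp11b1 did not reach the mean limit of 1. Genes of urothelium, the lining of the urinary tract, also rose: Upk3a from 0.191 to 1.26 FPKM, Upk1b from 0.239 to 0.837, and Krt19, a keratin of several epithelia, from 0.461 to 2.12. They were chosen after their values were seen, and their part in the matrix differences was not tested.

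Clock genes differed in both arms of the loop. Of 18 compared, 8 were listed for castration, 6 rose and 2 fell, beside 32.9% and 39.2% over all compared listed genes. Of the 18, 6 were at least 2-fold higher (2.65% over all compared genes), with a median of 0.77. The repressors Cry1 and Per1 rose from 1.25 to 3.50 and from 13.1 to 29.2 FPKM, and Dbp, an output factor, had 69.6 and 199. Clock fell from 3.96 to 2.97, and its partner Arntl had 2.11 and 0.637. At 18 months 1 of the 18 rose and 0 fell in the authors' deposited table. Ghr, the growth hormone receptor, had 203 and 56.4 FPKM at 12 weeks, and Socs2, a feedback inhibitor of that pathway, rose from 6.34 to 9.83 with 24.0 in females. Igfbp1, a binding protein of insulin-like growth factors, rose from 1.38 to 4.55. Ace, the angiotensin-converting enzyme, fell from 35.4 to 12.9 FPKM, whereas Ren1, the renin gene, had 47.4 and 48.4. Kl, the klotho gene, had 131 and 67.1.

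The same surgery was measured in other animals at 18 months, where the authors' deposited table gives a DESeq2 test for nearly every gene. Over 11689 compared genes with an adjusted p at 18 months, 1455 rose (12.4%) and 2119 fell (18.1%). Of the 310 genes at least 2-fold higher at 12 weeks, 141 rose at 18 months (45.5%) and 3 fell. Of the 448 at least 2-fold lower, 352 fell (78.6%) and 6 rose. The differences of log2(mean + 1) at both ages had a Pearson correlation of 0.67 and a Spearman correlation of 0.60 across 11416 genes, which are not independent replicates. Applying the 2-fold limit at both ages, 51 genes were higher at both (1.22% of these genes were higher and 1.14% lower at 18 months), 16.9% of the 12-week list of 301 and 36.7% of the 18-month list of 139. There were 110 lower at both, 25.1% of 439 and 84.6% of 130, and none passed the limit in opposite directions. Of the 20 largest rises, 16 rose at 18 months and 0 fell; of the 20 largest falls, 17 fell and 1, Ugt1a9, rose. Ugt1a2, which did not pass the test at 12 weeks, rose at 18 months with a log2 fold change of 9.62 (adjusted p = 8.93e-54, the authors' deposited table). Slc22a7 did not pass the test at 18 months, with means of 30.8 and 29.1.

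**Figure D5:**
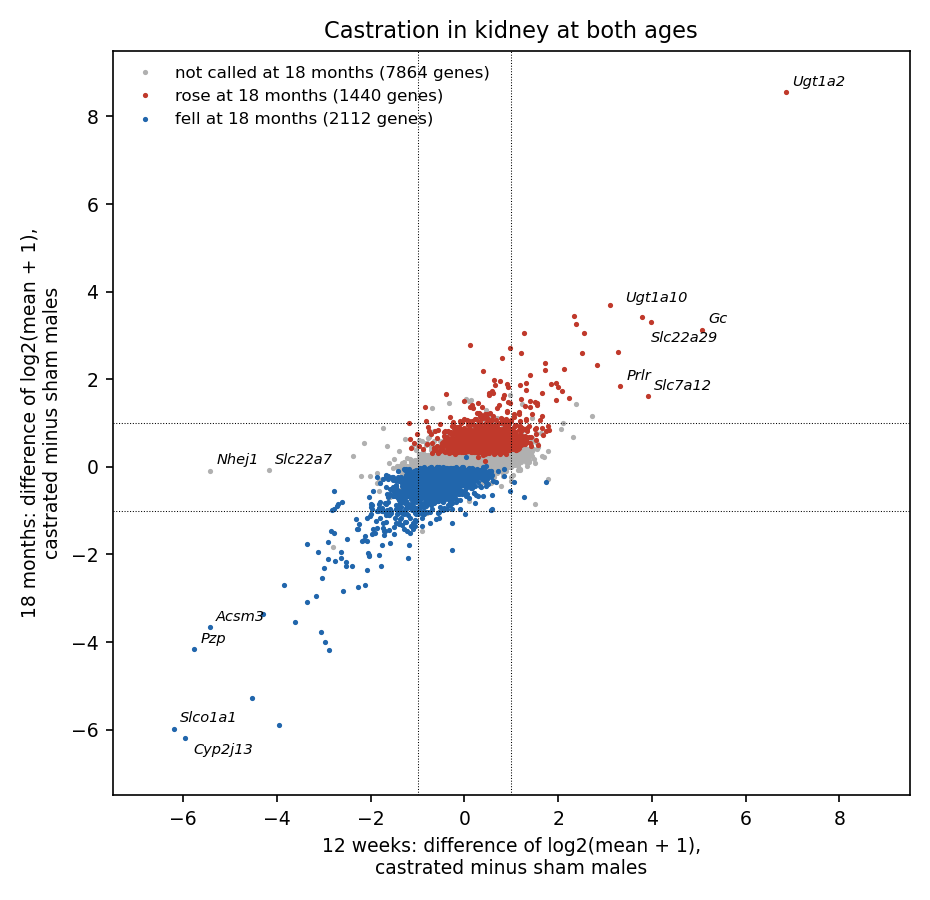
Each point is 1 of 11416 genes, with the difference of log2(mean + 1), castrated minus sham males, at 12 weeks on the horizontal axis and at 18 months on the vertical axis, coloured by the authors' DESeq2 call at 18 months. Dotted lines mark the 2-fold limits. Nhej1 and Slc22a7 lie far to the left and near 0 on the vertical axis.

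The gene groups differed in how far they were seen again at 18 months. The lists were chosen with earlier results of these data known, so the counts below are not independent evidence. All 21 male-biased genes fell and 12 of 15 female-biased genes rose in the authors' deposited table, beside 12.4% and 18.1% of all compared genes that rose and fell. Of 25 proteasome genes 15 fell and 0 rose, of 18 steroid-converting enzymes 12 fell and 1 rose, of 25 peroxisomal genes 15 fell and 1 rose, and of 27 genes of cholesterol and fatty acid synthesis 15 fell and 1 rose. Cytosolic heat shock proteins gave 1 of 28 that fell, endoplasmic reticulum chaperones 3 of 23 that fell and 1 that rose, and fatty acid oxidation 8 of 27 that fell and 10 that rose. Hadhb and Angptl4 were chosen after their values were seen. Hadhb, a subunit of the trifunctional protein of beta-oxidation, had 97.5 and 43.8 FPKM at 12 weeks and rose at 18 months with a log2 fold change of 0.28 in the authors' deposited table. Angptl4, an inhibitor of lipoprotein lipase, fell from 46.8 to 19.9 FPKM at 12 weeks and rose at 18 months with a log2 fold change of 0.87 in the authors' deposited table. Ribosomal proteins, with no common shift at 12 weeks, gave 25 of 30 that rose and 0 that fell at 18 months. The ages were processed separately, and whether the effect differs between them was not tested.

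Liver of castrated and sham males at 12 weeks, from 6 and 3 libraries, was set beside the kidney differences. The mean limit was met in both tissues by 9903 genes, and the differences had a Pearson correlation of 0.47 and a Spearman correlation of 0.58 across genes. Of 242 genes at least 2-fold higher in kidney, 37 were also higher in liver (15.3% of that list and 18.8% of the 197 higher in liver) and 4 were lower. Of 368 lower in kidney, 62 were lower in liver (16.8%, and 29.7% of 209) and 3 were higher. In liver 1.99% of these genes were at least 2-fold higher and 2.11% lower. Prlr had 15.6 FPKM in liver of sham males and 62.3 in castrated males, the same direction as in kidney, and Cyp7b1 had 92.6 and 15.8. Other large kidney differences had no counterpart in liver: Cyp2e1 had 3610 and 4620 FPKM there, Pzp 3167 and 3241, and Gc 5956 and 6596. The labels do not say whether both tissues came from the same animals.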

How the data were processed

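RNA was measured in kidney and liver. The submitters' processing notes name mm10, HISAT2, Cufflinks and SAMtools without versions. The authors deposited 12-week FPKM as 1 mean per group with 0.01 added to every value, so 0.01 is read as listed at 0. Per the file headers, the authors' 12-week comparison table has the Cuffdiff layout, which holds a fold change, a score from its test and raw and adjusted p-values for 1 of 3 comparisons per gene, and the rule behind that choice is not stated. The authors deposited 18-month means as a normalized signal in a unit that is not named, and log2 fold changes with p-values from DESeq2. Those folds were sham over castrated males (their sign matched the means in 0% of 2137 genes, and in 100% after reversal) and were reversed.

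From these, differences of log2(mean + 1) were computed, which understate the change of low genes, with Python 3.11.15, pandas 2.3.3 and NumPy 2.4.6. The scripts were tested on simulated data. No test was computed here, since a mean per group leaves no spread, and the depth per sample is unknown. A call is the authors' adjusted p under 0.05, with its direction from the means. Of 4722 genes listed for castration with a finite deposited fold, 14 had a fold that differed from the ratio of means by over 0.01, and 1 call, Pbld2, had the opposite sign. The named genes are the 20 largest rises and the 20 largest falls whose larger male mean was 5 or more, and members of the lists described by role, with genes listed at 0. The 66 gene lists hold 1129 genes, of which 970 were compared. Members and lists were chosen with earlier results of these data known. Gene positions are from GENCODE vM21 and promoters from RefSeq (GRCm38.p6). Alternatives changed the pseudocount, the mean and fold limits, the scaling and the adjusted p, and are given at the end. The metabolite tables were not used here. Some genes of the lists are not reported here by name.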

Additional observations from a re-analysis of the deposited data

How the results depend on the processing

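With only group means, no replicate could be left out in turn. No paired analysis was possible because the deposited 12-week values are group means and the columns carry no replicate numbers. The deposited test covers castration for 5598 of 17242 genes, so counts of calls in a list cover its listed members only.

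Of the 310 higher and 448 lower genes at the 2-fold limit, a pseudocount of 0.1 gave 639 higher and 564 lower (53.1% of both higher, against 40.9% with a pseudocount of 1), and a pseudocount of 5 gave 117 and 281 (29.4%). A limit of 1.5-fold gave 1407 and 1517, and 3-fold 43 and 126 (25.4%). Upper quartile scaling gave 538 and 327 (62.2% higher). Other filters on the mean, median scaling, keeping genes listed at 0 and subtracting the median of each gene's GC bin (chosen after seeing the data) left both counts within 1.5 times. For the 1264 calls that rose and 1458 that fell, an adjusted p under 0.01 left 755 that rose, and adding the 2-fold limit left 137 and 234. Of 62 lists with at least 5 compared members, 5 had a median of at least 0.5 and 15 of at most -0.5. The first number was 8 with a pseudocount of 0.1, 2 with a pseudocount of 5, and 9 with upper quartile scaling or a mean limit of 5, and the second was 8 with upper quartile scaling. Of 372 combinations of list and setting, a list median turned its sign in 14. In 12 of these the reported median lay within 0.1 of 0 (podocyte, arginine and urea, and renin-angiotensin lists after GC subtraction, for example). The other 2 were organic ion and drug transporters with a mean limit of 5 (0.20 to -0.77) and collecting duct principal cells after GC subtraction (0.13 to -0.0019). The cause was not tested. The differences of the 40 named genes kept their sign in all 160 combinations of gene and setting that were run. The correlations between ages and between tissues were rerun only with a pseudocount of 0.1 and with a mean limit of 5, and stayed within 1.5 times.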

Other observations

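In several genes the castrated mean lay outside the range between sham males and females. Serpina1a, an antitrypsin gene, had 19.6 FPKM in the sham group, 85.1 after castration and 3.90 in females. Pigr, the receptor that carries antibodies across epithelia, rose from 24.1 to 59.6 with 5.32 in females. Gm6614 had 1.20 and 13.6 with 0.466 in females. In the other direction, Slc22a19, a relative of Slc22a7, fell to 9.36 FPKM from 44.9 with 71.3 in females, and Ace fell from 35.4 to 12.9 with 30.4. These genes were singled out after their values were seen. Pigr and Lars2, the mitochondrial leucyl-tRNA synthetase (21.5 and 73.7 FPKM at 12 weeks), fell at 18 months with log2 fold changes of -0.84 and -0.53 in the authors' deposited table from DESeq2. Besides Kap, Adh6b is the other of the 2 genes that reached the mean limit of 1 but were listed at 0 in 1 male group. Adh6b had 1.10 FPKM in sham males and 0 in castrated males.

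Base composition moved with the kidney difference. Across 11650 genes with a GENCODE transcript, the difference had a Spearman correlation of 0.26 with GC content, and the medians of the lowest and highest of 5 GC bins were -0.12 and 0.26. The correlation was 0.15 in 12-week liver and in 18-month kidney. After subtraction of the median of each gene's GC bin, with narrower bins than these 5, the proteasome median was -0.71 in place of -0.76. The collagen median was 0.74 in place of 0.98. The 2-fold counts, the other list medians and the named genes were rerun with this subtraction as described above. Whether base composition caused any of the differences was not tested.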
